A study of Mus musculus with 4 samples.

Results

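Cadherins and protocadherins were taken as every array gene named Cdh with a number, or with a name starting with Pcdh, leaving out the endothelial cadherin Cdh5. The rule used gene names alone and no measured value. It gave 69 of the 22608 genes named on the array, and 60 of them were bright enough to be tested, among 18735 tested genes in all. The 69 genes were read by 97 probes at 115 spots, and each probe is a 60-base DNA strand fixed to the glass.

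The study set RNA labelled odontoblast against RNA labelled calvarial osteoblast on 4 arrays, each array carrying 1 RNA of each kind. The odontoblast RNA came from dental pulp and carried the dye Cy5. The osteoblast RNA came from calvarial bone and carried Cy3. Both came from 2-week-old mice bearing an EGFP transgene under a 2.3 kb type I collagen promoter, and the strain is given as C57BL/6 on the odontoblast side. Cells were released with enzymes, sorted on the green fluorescence and described as donor matched, and 250 ng of cDNA went into each labelling. Both sorts therefore select cells in which this collagen promoter is active, and no control without the transgene was analysed here. How many animals gave the RNA of an array is not stated in the labels, so the p-values measure the spread between 4 arrays, which may be technical. Since the RNA was extracted from whole sorted populations, fewer cells of a type and less RNA per cell cannot be told apart.

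Ratios are log2 of Cy5 over Cy3, so a positive ratio means a higher signal in the channel labelled odontoblast. All 4 arrays carried the dyes the same way round, so a dye effect and a difference between the RNAs cannot be told apart. The defining markers ran against the dye labels. All 4 odontoblast markers had negative mean ratios, their summed intensity spanning 4017.7 to 7614.8 in Cy5 and 17503.2 to 58632.7 in Cy3. All 7 osteoblast markers had positive mean ratios, with sums of 411242.9 to 683278.2 in Cy5 and 60609.1 to 160741.6 in Cy3. Of these, Sp7 lay near 0, at a mean of 0.02 with ratios of 1.07, -1.39, 0.56 and -0.18. Bglap was negative on arrays 2 and 3, at -0.32 and -0.35. The other osteoblast markers were positive on every array. Values are therefore given by dye and label, not by cell type. Of 6 leukocyte markers 2 were called higher in Cy5 and 0 in Cy3, against 1.31% and 0.886% of all genes. Their sums were 40196.4 to 108146.7 in Cy5 and 22556.0 to 31788.8 in Cy3. The leukocyte markers did not move together, with 4 means above 0 and 2 below. Csf1r was negative on all 4 arrays at a mean of -0.39, and Cd68 had a mean of -0.10. The 6 endothelial markers tested of 8 had 0 calls and sums of 7530.7 to 11450.5 in Cy5 and 7726.6 to 9485.3 in Cy3. The part of such other cells in the values below was not tested. On each array 75.5 to 85.2% of probes lay above background in Cy5 and 67.8 to 80.9% in Cy3. Ratios of array pairs correlated with r between 0.302 and 0.486 over all kept probes, and no spot was saturated.

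Cadherins are cell surface proteins whose extracellular repeats bind those of a neighbouring cell in the presence of calcium. Classical cadherins, of type I and type II, hold catenins on their cytoplasmic tail and through them the actin cytoskeleton, and N-cadherin and cadherin-11 are the classical members known from bone-forming cells. Protocadherins lack the catenin-binding tail. The clustered ones lie in the alpha, beta and gamma arrays of genes, where each alpha or gamma transcript joins 1 variable first exon to constant exons shared by its whole cluster, while a beta gene is a single exon. Their best known role is in the recognition of self by neurons, and the non-clustered delta protocadherins are also studied mainly in the nervous system.

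Different mean ratios stood side by side in 4 type II cadherin genes on chromosome 15, Cdh6, Cdh9, Cdh10 and Cdh18. The probe sequences are shown because probes so alike gave different ratios. Cdh12, another type II gene whose probe lies between those of Cdh10 and Cdh18, was too dim to be tested. Capitals mark the 8-base run that the probes of Cdh6, Cdh9 and Cdh10 share. The probe of Cdh6 lies on the minus strand at chr15:12963981-12964040, that of Cdh9 on the plus strand at chr15:16785915-16785974, that of Cdh10 on the plus strand at chr15:18943342-18943401 and that of Cdh18 on the plus strand at chr15:23404051-23404110, all on mm9.
Cdh6: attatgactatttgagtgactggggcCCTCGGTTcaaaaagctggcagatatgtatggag
Cdh9: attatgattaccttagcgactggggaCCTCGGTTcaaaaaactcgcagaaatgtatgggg
Cdh10: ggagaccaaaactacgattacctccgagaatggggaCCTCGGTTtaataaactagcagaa
Cdh18: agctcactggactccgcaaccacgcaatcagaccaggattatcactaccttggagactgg
The probes of Cdh6 and Cdh9 matched at 83.3% of 60 aligned bases and those of Cdh9 and Cdh10 at 82.0% of 50. The Cdh6 and Cdh10 probes matched at 70.0% of 50 bases. The Cdh18 probe starts further upstream and overlaps the others by 23 to 33 bases, with 66.7 to 82.6% identity there. The mean log2 ratios of these probes were 1.12 for Cdh6, -0.09 for Cdh9, -2.37 for Cdh10 and 0.20 for Cdh18. The differences between the genes were not tested, nor was hybridization of 1 gene's RNA to another's probe.

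Of the 60 genes tested, 1 passed an adjusted p of 0.05 (limma, Benjamini-Hochberg over all features). It was Pcdh19, higher in Cy5, and no member was called higher in Cy3. The same rule called 2.2% of all genes, 1.31% as higher in Cy5 and 0.886% as higher in Cy3. At an unadjusted p under 0.05 there were 12 members higher in Cy5, where the rule gives 11.4% of all genes, and 8 higher in Cy3, where it gives 10.1%. The rule without regard to direction gives 21.4% of all genes. Ratios had 1 sign on all 4 arrays for 10 members on the Cy5 side and 11 on the Cy3 side. Over all genes these shares were 16.1% and 15.4%. The median ratio of the 60 was 0.13, against 0.01 over all genes, with a range of -2.37 to 3.58, and 33 of the 60 means lay above 0, as did 50.7% of all genes. In 12 members the mean ratio was at least 2-fold in size, which held for 12.8% of all genes. The intensities of the 2 channels did not overlap across the arrays for 3 members on the Cy5 side and 3 on the Cy3 side. All genes gave 7.38% and 6.09% for these directions.

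Detection came before any comparison. On all 4 arrays, 41 of the 69 genes gave a signal well above background in each dye, and 67 did so in at least 1 channel of 1 array. The 9 genes not tested were Cdh1, Cdh12, Cdh22, Pcdh8, Pcdh12, Pcdh17, Pcdhb10, Pcdhb13 and Pcdhb19, and of these Pcdhb13 and Pcdhb19 were never above background. All 6 names of the gamma cluster, all 7 alpha cluster genes and all 5 atypical cadherins were tested, as were 19 of 22 beta cluster genes. Intensities below are normalized values in arbitrary units that include an added offset of 50, and they compare channels of 1 probe, not probes.

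**Figure D1:**
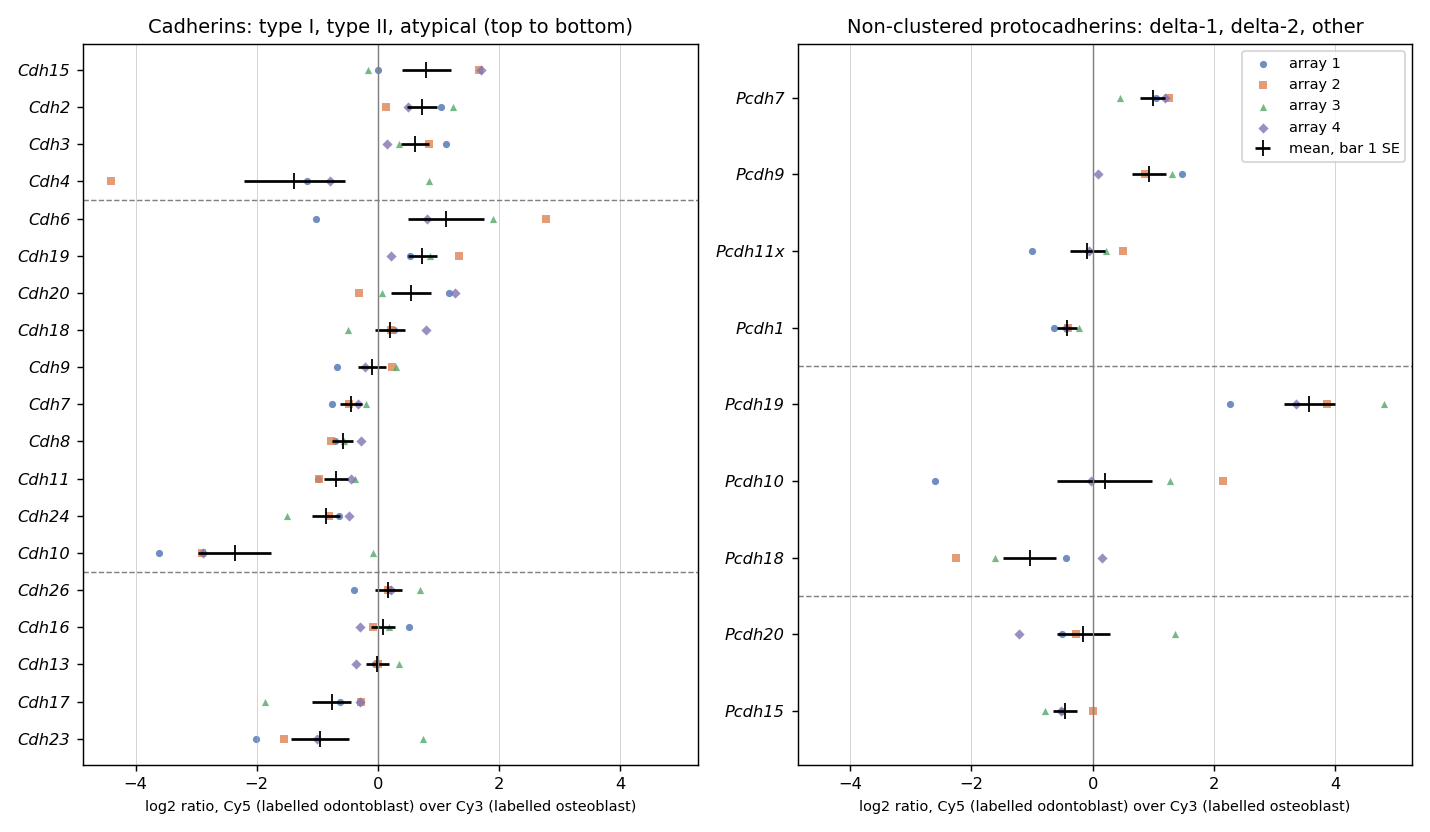
Log2 ratio of Cy5 (labelled odontoblast) over Cy3 (labelled osteoblast) for the tested cadherins and non-clustered protocadherins, with 1 point per array and the mean with 1 SE. Pcdh19 lies furthest to the right at a mean of 3.58 and Cdh10 furthest to the left at -2.37, where array 3 stands near 0 and apart from the other arrays.

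Among type I cadherins, 4 of 5 genes were tested and 3 had positive mean ratios, with a median of 0.67. Cdh2, which encodes N-cadherin, had Cy5 intensities of 5256.5, 3331.1, 5125.1 and 3441.5 on arrays 1 to 4, and Cy3 intensities of 2544.0, 3030.5, 2176.1 and 2447.6. In these values, from its brightest probe, the channels did not overlap and every array had more Cy5 signal. The mean ratio of Cdh2 was 0.73 (SE 0.24, n = 4) with an adjusted p of 0.209, which did not pass. Its second kept probe had a mean of 0.48 and was negative on arrays 1 and 2, at -0.34 and -0.37. Cdh3, which encodes P-cadherin of epithelia, had ratios of 1.13, 0.84, 0.35 and 0.14, also positive on every array, with a mean of 0.62 and an adjusted p of 0.239.

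Cdh15 encodes M-cadherin, known from muscle satellite cells. Its ratios were 1.67 and 1.70 on arrays 2 and 4, and 0.00 and -0.17 on arrays 1 and 3, so the mean of 0.80 (SE 0.41, adjusted p 0.356) came from 2 of the 4 arrays. Of 6 muscle markers 5 were tested and none was called, with summed intensities of 10252.5 to 11943.7 in Cy5 and 10512.7 to 17868.0 in Cy3. Acta1 and Myod1, both with negative means, made up most of these sums. Of the 5 means 2 were above 0 and 3 below. Myog had ratios of 0.01, 0.72, 0.27 and 1.49 on arrays 1 to 4, and Des was also positive on every array. The part of muscle cells in the Cdh15 values was not tested. Cdh4, R-cadherin of retina and brain, was a dim gene whose ratios ran between -4.41 on array 2 and 0.85 on array 3. Its mean of -1.38 (SE 0.83) had an adjusted p of 0.421.

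E-cadherin, encoded by Cdh1 and the hallmark of epithelial sheets, did not reach the filter and has no test. Its single probe was printed at 10 spots. All 10 spots lay above background in Cy5 on array 1 and 8 did on array 4, against 0 on array 2 and 1 on array 3. In Cy3, all 10 were above background on array 4, 0 on arrays 1 and 2, and 1 on array 3. The scanner software's log2 ratio of Cdh1 averaged 1.75, 0.65, 0.38 and -1.03 over the spots of arrays 1 to 4. It had a median SD over spots of 0.537 within an array, and an SD of 1.14 between the array means. These ratios are of signals that were in part at background, and no direction is given for Cdh1. Dental epithelium, a cell type that expresses E-cadherin, had all 7 of its markers tested. Of these, 0 were called higher in Cy5 and 2 in Cy3, against 1.31% and 0.886% of all genes. Their summed intensity was 2042.2 to 2966.4 in Cy5 and 6382.6 to 11860.5 in Cy3. Odam and Ambn, the 2 called, had means of -5.00 and -3.05, and Perp had -1.65 without a call. Krt5, Krt14 and Epcam lay near 0 at -0.14, -0.10 and -0.03, and Amelx had 0.26. The part of epithelium in the values of Cdh1 and Cdh3 was not tested.

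Of 10 type II cadherins tested among 12, 4 had positive mean ratios and 6 negative. The median ratio was -0.27, against 0.01 over all genes. With each array centred on its median in place of loess it was 0.032, against 0.21 over all genes. The sign of the type II median thus depended on the normalization, while it lay below the median of all genes under both. On all 4 arrays 1 of the 10 was positive, against 16.1% of all genes, and 5 were negative, against 15.4%. At an unadjusted p under 0.05 there was 1 on the Cy5 side, against 11.4% of all genes, and 4 on the Cy3 side, against 10.1%, and none passed after adjustment. The largest was Cdh10, a type II cadherin studied mainly in brain. In Cy5 it had 629.0, 1381.4, 858.6 and 1109.7 on arrays 1 to 4, and in Cy3 7669.1, 10314.7, 906.1 and 8166.2. Array 3 thus lacked the high Cy3 signal of the other arrays, and the channels overlapped there. The ratios were -3.61, -2.90, -0.08 and -2.88, with a mean of -2.37 (SE 0.60, adjusted p 0.142). Without array 3 the mean was -3.13 with an adjusted p of 0.0348, and Cdh10 was then called. As array 3 held the ratio near 0, leaving it out had to enlarge the mean, so that call adds no support. Leaving out array 1, 2 or 4 instead gave no call, at adjusted p values of up to 0.360.

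**Figure D2:**
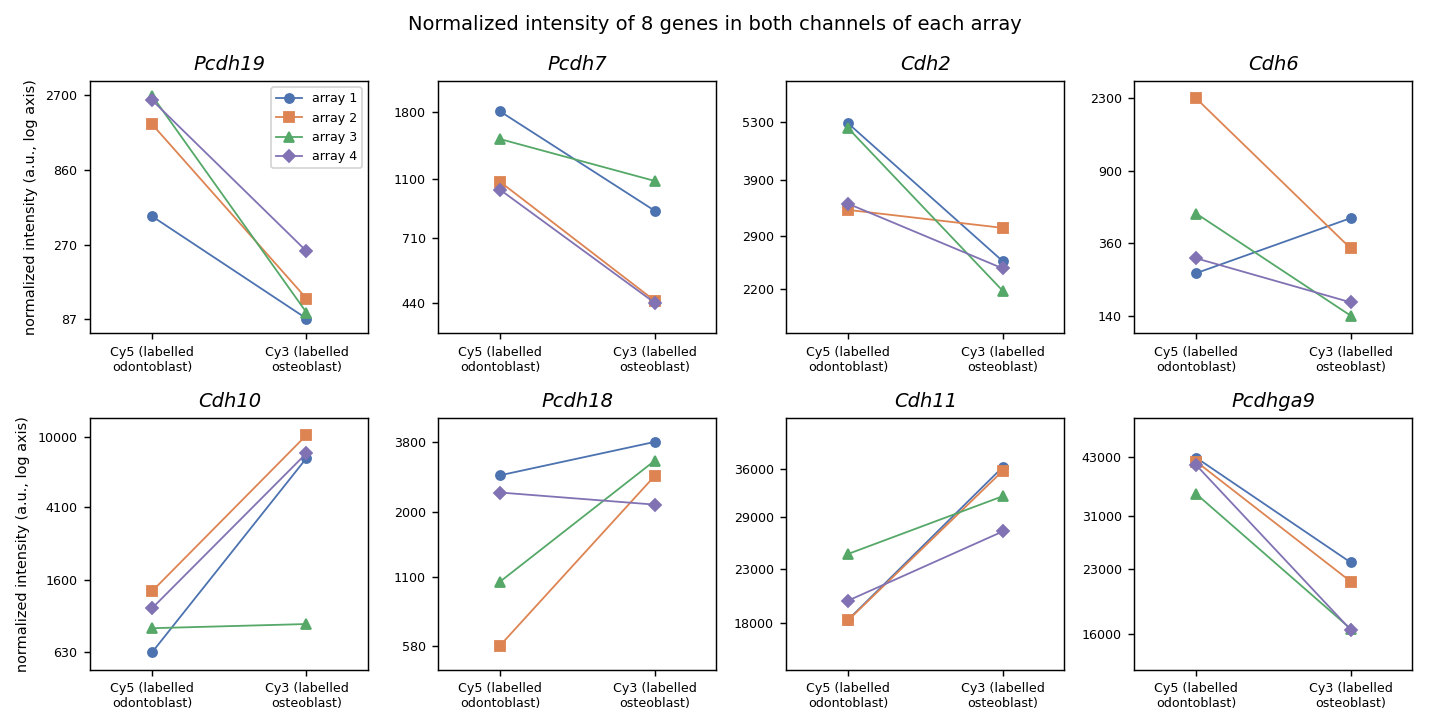
Normalized intensity in Cy5 (labelled odontoblast, left of each pair) and Cy3 (labelled osteoblast, right), in arbitrary units on a log scale, with lines joining the channels of an array. Pcdh19 is higher in Cy5 on every array, while the Cy3 value of Cdh10 is 906.1 on array 3 and 7669.1 to 10314.7 on the others.

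Cdh11 encodes cadherin-11, also called OB-cadherin, which mesenchymal and bone-forming cells carry. It had Cy5 intensities of 18270.3, 18231.3, 24585.6 and 19919.9 and Cy3 intensities of 36353.5, 35739.2, 31891.5 and 27205.5. The channels did not overlap, and Cy3 was higher on every array. The mean ratio was -0.70 (SE 0.20) with an adjusted p of 0.165, and the second probe gave -0.56. With each array centred on its median in place of loess the mean of Cdh11 was 0.04, so its direction depended on the normalization; that centring moved the median of all genes to 0.21.

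Cdh24, a type II cadherin that binds catenins, had Cy5 intensities of 1007.2 to 1208.1 and Cy3 intensities of 1395.3 to 3428.8, which did not overlap. Its mean ratio was -0.86 and its adjusted p 0.153. Cdh8, a type II cadherin of brain, had ratios of -0.72, -0.78, -0.55 and -0.28. Its mean of -0.58 had an adjusted p of 0.183, and its 3 probes ran between -0.58 and 0.06, so they did not share a direction. Cdh7 had a mean of -0.44 with an adjusted p of 0.270. It was dim and entered the test through Cy3, well above background on 3 arrays in Cy3 and 2 in Cy5. Of its 3 probes 1 was kept.

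Cdh6, known as K-cadherin of the kidney, had Cy5 intensities of 243.0, 2292.5, 522.6 and 294.1 and Cy3 intensities of 492.7, 334.0, 140.8 and 167.1. It was lower in Cy5 on array 1 and higher on the others, with a mean ratio of 1.12 (SE 0.63, adjusted p 0.393). Cdh9 and Cdh18 had means of -0.09 and 0.20, both with an SE above their size. Cdh20 had a mean of 0.54 with an adjusted p of 0.427.

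Cdh19, known from Schwann cells and their precursors, was positive on every array, with ratios of 0.53, 1.33, 0.85 and 0.21. It entered the test through Cy5 alone, which was well above background on 3 arrays, while Cy3 was so on none and array 4 had neither. As a description of these arrays, its mean Cy5 signal lay 1.43-fold above the Cy3 floor, given as a bound. The filter admitted the gene only through Cy5, so Cy5 above this floor is no evidence of a difference. The test did not pass, with an adjusted p of 0.198, so no difference was called. Such a bound compares the mean of the bright channel with a floor, which on each array is the dimmest signal still detected there or the probe's own value where that is larger. The 6 Schwann and nerve markers had 0 calls and summed intensities of 1336.7 to 3043.6 in Cy5 and 1080.7 to 1721.7 in Cy3. Their part in the Cdh19 value was not tested.

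The 5 atypical cadherins lay near 0 or varied between arrays. Cdh13 encodes T-cadherin, which has a lipid anchor and no cytoplasmic tail, and its mean was -0.01 with a second probe at 0.51. Cdh23, a protein of the tip links of inner ear hair cells, had ratios between -2.02 on array 1 and 0.75 on array 3 and an adjusted p of 0.344. Cdh17, the cadherin of liver and intestine, was negative on all arrays with a mean of -0.77 (adjusted p 0.276), but its second probe gave 0.23. Cdh16, the kidney-specific cadherin, and Cdh26 had means of 0.08 and 0.17.

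Pcdh19 was the called member. It encodes a delta-2 protocadherin that acts together with N-cadherin, and human mutations in it cause an epilepsy that affects mainly females. Its probe lies at chrX:130122356-130122415 on mm9. The Cy5 intensities were 420.0, 1731.8, 2690.0 and 2507.9, and the Cy3 intensities were 87.1, 118.5, 95.5 and 245.6. The lowest Cy5 value lay above the highest Cy3 value. The ratios were 2.27, 3.87, 4.82 and 3.35, and the mean of 3.58 (SE 0.42, 95% interval 2.51 to 4.64) corresponds to 11.9-fold (limma, adjusted p 0.0305). Pcdh19 entered the test through Cy5, the channel in which it was high, and which was well above background on all 4 arrays. In Cy3 the probe was well above background on array 4 alone. The size of the fold, and the p-value and interval with it, thus rest on values near background on the other arrays. The size depended on how background was treated, with a mean ratio of 4.44 (21.7-fold) at an offset of 10 and 5.67 (50.8-fold) by the scanner software's ratio, the second of which lies outside the interval given.

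Leaving out any 1 array ended the Pcdh19 call while the ratio stayed between 3.16 and 4.01. The adjusted p was 0.0601 without array 1, 0.137 without array 2, 0.0549 without array 3 and 0.140 without array 4. Neuron markers, of which 3 of 4 were tested, had 0 calls and summed intensities of 50010.4 to 69668.6 in Cy5 and 45907.1 to 64036.3 in Cy3. The single probe of Snap25 made up most of these sums, at 48168.6 to 67322.7 in Cy5. Snap25 had a mean ratio of 0.16, and Tubb3 and Rbfox3 had means of -0.08 and -0.26.

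The other delta protocadherins with 1 sign on all arrays were of the delta-1 group. Pcdh7, an isoform of which binds a protein phosphatase, had Cy5 intensities of 1804.7, 1075.0, 1472.3 and 1014.4 and Cy3 intensities of 869.7, 448.8, 1082.3 and 441.9. Each array had more Cy5 signal, though the ranges overlapped. Its mean ratio was 0.99 (SE 0.21, adjusted p 0.102), and its 3 probes ran from 0.86 to 0.99. The dimmest of the 3 was negative on array 1, at -0.18. Pcdh9 had a mean of 0.94, positive on all arrays, with an adjusted p of 0.178. Its second kept probe had a mean of 0.62 and was negative on array 1, at -0.07. Pcdh1, known from airway epithelium, was negative on all arrays with a mean of -0.43 (adjusted p 0.258), while its other probe gave 0.01. Pcdh11x had a mean of -0.09, with probes from -0.63 to 0.44.

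Delta-2 members other than Pcdh19 varied from array to array. Pcdh10, which binds regulators of actin, had ratios of -2.60, 2.15, 1.28 and -0.02, with a mean of 0.20 (SE 0.78). Its second probe had a mean of 1.28, with ratios between -1.87 on array 1 and 3.60 on array 3. Both probes were negative on array 1 and positive on arrays 2 and 3. Pcdh18 had Cy5 intensities of 2807.0, 584.5, 1053.3 and 2394.8 and Cy3 intensities of 3817.6, 2786.8, 3207.3 and 2142.7. Its mean was -1.04 with an adjusted p of 0.281, and array 4 had the opposite sign. Outside the delta groups, Pcdh15, the partner of Cdh23 in tip links, had a mean of -0.45 over ratios of -0.50, 0.01, -0.79 and -0.53. Of its 7 probes 4 were kept, and they ran between -0.87 and 0.15. Pcdh20 had a mean of -0.16.

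In the clustered protocadherins the 3 clusters gave different pictures. The probes of all clusters lie on chromosome 18, in the order alpha, beta, gamma, over spans of 232.6 kb, 253.7 kb and 177.6 kb on mm9. All 5 gamma genes with a probe of their own had positive mean ratios, between 0.78 and 1.26, and their median was 1.21. On arrays 1 to 4 this gamma median was 0.74, 0.88, 1.96 and 0.85. The beta median was 0.02, -0.31, -0.15 and -0.26 on the same arrays, and the alpha median 0.12, -0.30, 0.11 and 0.12. The gamma median was thus the highest of the 3 on each array. In 3 of the 5 gamma genes every array was positive, against 16.1% of all genes, and 4 passed an unadjusted p of 0.05, against 11.4%. None was called after adjustment. No test of the difference between clusters was made.

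**Figure D3:**
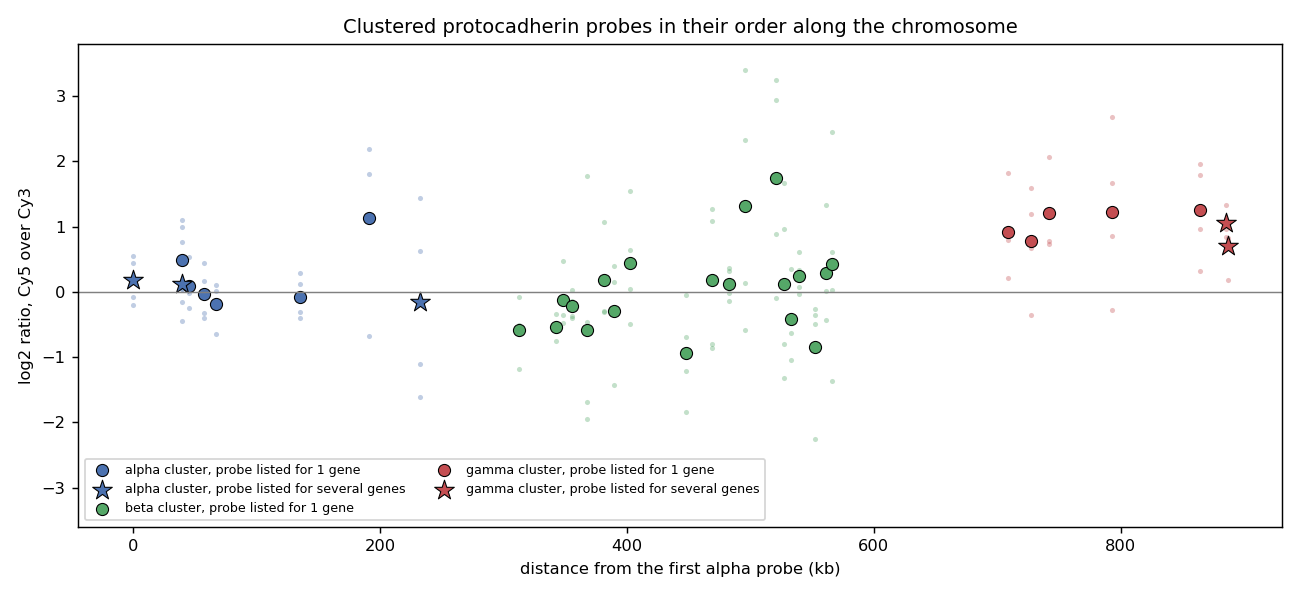
Log2 ratio of Cy5 (labelled odontoblast) over Cy3 (labelled osteoblast) at each kept probe of the alpha, beta and gamma clusters, against the distance in kb from the first alpha probe, with faint points for arrays and full symbols for the mean. The gamma probes all have means above 0, while the alpha and beta probes scatter on both sides of it.

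Gamma genes were read by 7 probes. Of these, 5 list transcripts of 1 gene. The other 2, both named Pcdhga9, list transcripts of several gamma genes and lie beyond the 5 single-gene probes along the chromosome. They are taken here as readouts of several gamma transcripts, not of Pcdhga9 alone. The brighter of them had Cy5 intensities of 42856.1, 41944.3, 35010.8 and 41135.3 and Cy3 intensities of 23885.5, 21472.2, 16491.9 and 16401.5. The channels were well apart, with ratios of 0.84, 0.97, 1.09 and 1.33, a mean of 1.06 (SE 0.17) and an adjusted p of 0.0615. The second shared probe gave a mean of 0.70 over ratios of 0.18, 0.78, 0.83 and 1.03.

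Single-gene gamma probes varied more. Pcdhga5 had ratios of 0.74, 0.78, 2.07 and 1.24, with a mean of 1.21 and an adjusted p of 0.119. Pcdhgc5, a C-type isoform, had a mean of 1.26 (adjusted p 0.143) and was positive on all arrays, as was Pcdhga1 with a mean of 0.92 (adjusted p 0.192). Pcdhga10 was negative on array 1 at -0.27 and reached 2.68 on array 3. Pcdhgb1 was negative on array 2 at -0.35, with a mean of 0.78.

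The 7 alpha genes had a median ratio of 0.09, and none had 1 sign on all arrays. Pcdhac2, a C-type isoform, stood apart with 2.18, -0.68, 1.20 and 1.80, a mean of 1.13 and an adjusted p of 0.298. On array 2 its Cy3 intensity was 380.7, and on the other arrays it was 107.5 to 125.9. Its Cy3 signal was not well above background on arrays 3 and 4. The probe named Pcdhac2 that lists several alpha genes and lies last in the cluster gave a mean of -0.16, with ratios between -1.60 and 1.44. The other alpha genes lay between -0.19 for Pcdha12 and 0.18 for Pcdha4. The values used for Pcdha4 and Pcdha8 came from probes that list transcripts of more than 1 gene. For Pcdha8 that probe gave a mean of 0.13, while the probe listing Pcdha8 alone gave 0.49 and was positive on all arrays.

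The beta genes had a median of 0.13 over 19 tested, with 10 means above 0 and 9 below. Pcdhb15 had the largest mean, 1.74 (SE 0.62, adjusted p 0.225), made of 2.94, 0.88, 3.25 and -0.09. Pcdhb14 followed the same arrays with 2.32, -0.58, 3.40 and 0.14 and a mean of 1.32. Both were high on arrays 1 and 3 and low on arrays 2 and 4. Pcdhb15 entered the test through Cy5, and its Cy3 signal was not well above background on arrays 1 and 3. The size of its high ratios there rests on values near background. The 4 beta genes with 1 sign throughout were all negative, Pcdhb9, Pcdhb20, Pcdhb1 and Pcdhb2. Pcdhb9 had a mean of -0.94 (adjusted p 0.216) and Pcdhb2 one of -0.53 (adjusted p 0.194). Pcdhb12 had a mean of 0.13 with an adjusted p of 0.731. Pcdhb18 likewise entered the test through Cy5 alone, with no array well above background in Cy3, and its ratio on array 4 was -0.04. Its mean Cy5 signal lay 1.12-fold above the Cy3 floor, which the filter favoured in the same way as for Cdh19. No difference was called (adjusted p 0.521).

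Pcdhb3 was printed at 10 spots and all were above background in both channels on every array. Its software ratios averaged -0.12, -0.63, -0.53 and 0.70 on arrays 1 to 4, with a median SD over spots of 0.163. The SD between array means was 0.605, and array 4 had the opposite sign to the others.

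Set side by side, the median ratio was 0.05 for the 14 tested classical cadherins and 0.15 for the 32 tested clustered protocadherins. On arrays 1 to 4 the classical median was -0.66, -0.09, -0.00 and -0.04, and the clustered median 0.10, -0.09, 0.51 and 0.05. Within arrays, clustered minus classical was 0.76, 0.0048, 0.51 and 0.09, with a mean of 0.34 and an SD of 0.35 (n = 4). The difference was positive on each array, near 0 on array 2, and it was not tested. The classes differed in description in the size and steadiness of single genes. The median size of a ratio was 0.71 for classical cadherins, 0.43 for clustered protocadherins and 0.35 for all genes. Ratios kept 1 sign on all arrays in 57.1% of the classical and 25.0% of the clustered genes, against 31.5% of all genes.

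The proteins that cadherins work with were given by lists. Of 9 catenin genes, 1 was called and it was higher in Cy3, where the rule called 0.886% of all genes. This was Pkp4, an armadillo protein of the p120 catenin family, with Cy5 intensities of 4754.5 to 7270.2 and Cy3 intensities of 14487.1 to 18725.1. The mean ratio of Pkp4 was -1.46 (SE 0.17, adjusted p 0.0278). Ctnnb1, which encodes beta-catenin, and Ctnnd1, which encodes p120 catenin, had means of 0.44 and 0.89 that did not pass, at adjusted p values of 0.274 and 0.139. Both were positive on all 4 arrays. Ctnna1 and Ctnna2, which encode alpha-catenins, were negative on all 4 arrays, with means of -0.41 (adjusted p 0.271) and -0.64 (adjusted p 0.252). Of the 9 means 3 were above 0 and 6 below, and the median was -0.32, against 0.01 over all genes. Vcl, which encodes the catenin-bound protein vinculin, had a mean of 0.03.

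Among the other genes of the superfamily, 15 of 17 were tested and 1 was called in each direction. Over all genes 1.31% were called higher in Cy5 and 0.886% higher in Cy3. Fat3, a giant cadherin studied in neurons, had Cy5 intensities of 10128.6, 4771.5, 10879.3 and 6699.9 and Cy3 intensities of 1593.1, 548.7, 596.4 and 857.3. The channels lay far apart, with a mean ratio of 3.24 (SE 0.29, adjusted p 0.0170). Fat4, which binds Dchs1 from the neighbouring cell in planar polarity, had Cy5 intensities of 2146.4 to 5240.7 and Cy3 intensities of 6193.0 to 9824.2. Its mean was -1.39 (adjusted p 0.0476). Dchs1 itself had Cy5 intensities of 4043.9, 516.8, 4627.2 and 2005.3 and Cy3 intensities of 18751.7, 12246.6, 4752.5 and 10535.7. It was near equal on array 3 alone, the array on which Cdh10 was near equal too, and its mean of -2.30 (adjusted p 0.184) did not pass.

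**Figure D4:**
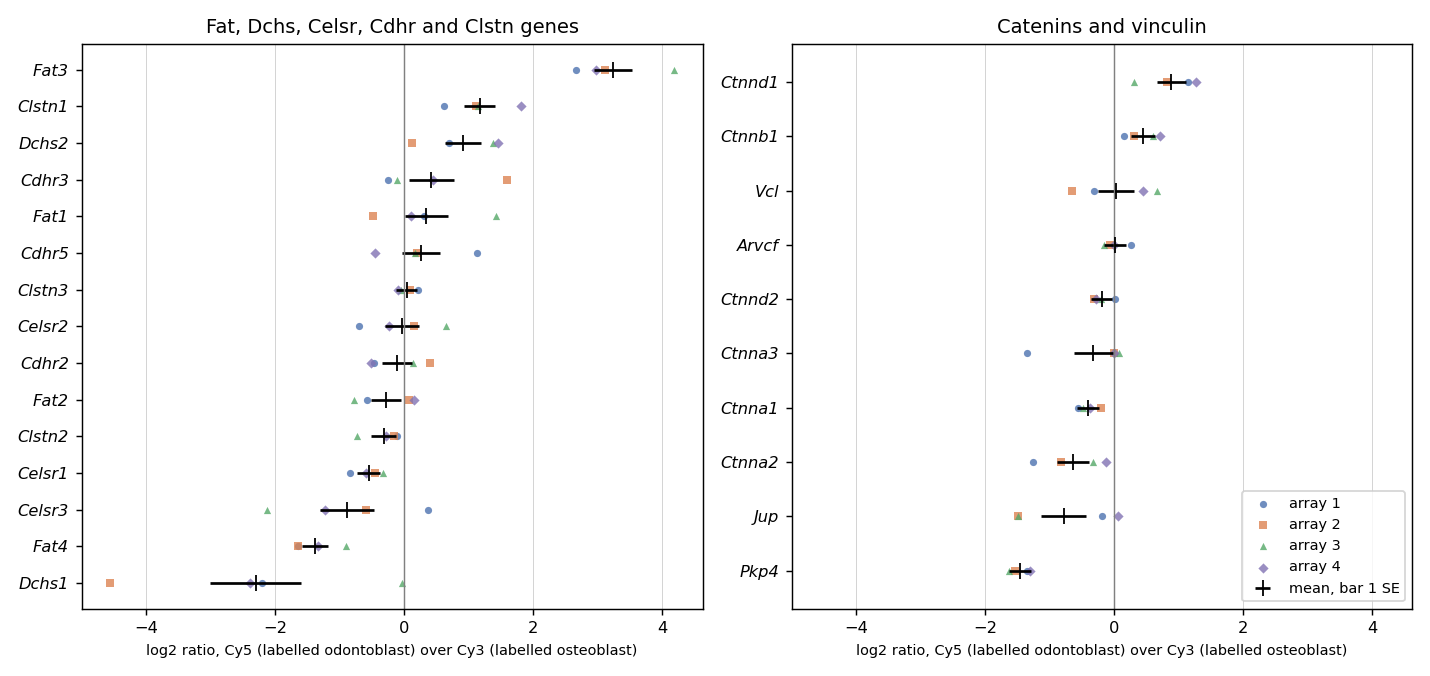
Log2 ratio of Cy5 (labelled odontoblast) over Cy3 (labelled osteoblast) for other cadherin superfamily genes (left) and for catenins and vinculin (right), with 1 point per array and the mean with 1 SE. Fat3 lies at 3.24 and Fat4 at -1.39 on the left, and Pkp4 at -1.46 on the right, each with all arrays on 1 side of 0.

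Of the 7 repressors of E-cadherin transcription, 1 was called as higher in Cy5, against 1.31% of all genes. Twist1, a mesenchymal factor, had Cy5 intensities of 3795.9 to 4779.9 and Cy3 intensities of 1087.6 to 1779.4, with a mean ratio of 1.65 (adjusted p 0.0335). Snai2 had a mean of 1.22 (adjusted p 0.154), and 4 of the 7 means were negative, with a median of -0.13.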

How the data were processed

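Agilent Feature Extraction 10.7.3.1 made the authors' scanner files, per the file headers. The mean spot intensity and median local background intensity of both channels at 62976 spots per array were deposited by the authors as the software extracted them, without normalization, per the file headers. They also hold the software's log10 ratio of Cy5 over Cy3 and 0 or 1 flags, read as a score in the deposited files, for outlier, saturated and well-above-background spots. A deposited value table of log10 values lay within 0.0001 of that ratio at 99.3 to 99.4% of probes, with a median of 0 and no other centring found. Any later step of the authors is not given in these sources.

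Here intensities were corrected with normexp (offset 50) and loess in limma 3.58.1 under R 4.3.3, with the 3671 control spots at weight 0, and 949 outlier spot values set to missing. Spots of a probe were averaged, and 44239 of 55681 probes were kept, which needed 1 channel to be well above background on 3 or more of the 4 arrays. Probes were named through RefSeq accessions (27235) and file symbols; the brightest kept probe stood for a gene, giving 37409 features. Mean ratios were tested against 0 with lmFit and eBayes, two-sided, with Benjamini-Hochberg adjustment. The depth is unknown, and the number of arrays limits precision. The fit was tested on simulated data.

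All arrays lay on 1 slide and were scanned once, which left no batch to test. The members and gene lists were chosen with earlier results of these data known. Named members were every called one, the up to 3 largest ratios and the brightest member of each class, members with a bound, and Cdh1, Cdh2, Cdh3, Cdh11, Cdh13 and Cdh15; others with 1 sign on all arrays, single list genes, and counts over gamma genes with their own probe and over catenins without vinculin, were chosen after their values were seen. Alternatives were median centring, the software ratio, scale normalization, an offset of 10, other filters, the mean over probes, a trended robust prior and each array left out. Coordinates are those in the files (mm9); exon and UTR positions of probes were not used here.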

Additional observations from a re-analysis of the deposited data

Results flagged for a closer look

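Within each named member and class, the 4 arrays were compared for 1 that lies far from the rest, by its gap to the nearest array over the whole range (Dixon's test at 95%). Of 91 sets of values, 3 passed, and chance flags about 1 in 20. The median ratio of the classical cadherins was -0.66 on array 1, with a gap of 0.867 of the range. The Cy3 intensity of Pcdhac2 was 380.7 on array 2, with 0.875. The Cy3 intensity of Cdh10 was 906.1 on array 3, with 0.878.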

How the results depend on the processing

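Of the ratios of named members recomputed under the alternatives, 327 kept their direction and side of the threshold, 7 reversed, 4 passed the threshold newly and 4 lost it. The count of called members was 3 with median centring (Pcdh19, Pcdh7 and Pcdhga9, among 1359 called genes and with the median of all genes at 0.21), 2 with the trended robust prior (Pcdh19 and Pcdhga9), 0 where both channels had to be above background on all arrays, and 0 to 1 with 1 array left out. In that both-channel filter Pcdh19 was no longer tested, 15 members had an unadjusted p under 0.05, and limma called 385 genes. Without array 1, 2, 3 or 4 limma called 0, 0, 173 and 29 genes, and 12, 15, 18 and 15 members had an unadjusted p under 0.05. The share of all genes at that unadjusted threshold was not counted under these settings. The type II median was 0.032 with median centring and -0.58 with the both-channel filter. All 6 gamma means, the shared Pcdhga9 probe among them, were above 0 in every setting run. Cdh13 reversed to 0.20 with median centring and 0.25 as a mean over probes, and Cdh11 to 0.040 with median centring; the cause was not tested. With 1 array left out the sign changed for Pcdha8 (-0.16 to 0.32), Cdh26 (-0.00059 to 0.36), Cdh13 (-0.13 to 0.10) and Pcdh20 (-0.66 to 0.20). Medians then ran from -0.03 to 0.14 for classical cadherins, 0.05 to 0.17 for clustered protocadherins, 0.94 to 1.18 for these gamma means and -0.37 to -0.12 for type II cadherins. Signal over background limits the dim genes. With 1 group of arrays, each pairing the 2 RNAs, the test of the ratios against 0 was itself the paired analysis.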

Other observations

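Desmosomes are junctions built from their own cadherins, and 9 of 11 desmosome genes were tested. None was called in either direction by limma. An unadjusted p under 0.05 gave 0 on the Cy5 side, against 11.4% of all genes, and 3 on the Cy3 side, against 10.1%. Of the 9 means 7 were below 0, with a median of -0.41, and 50.7% of all genes had means above 0. Dsp, which encodes the desmosomal linker desmoplakin, had Cy5 intensities of 134.3, 97.2, 820.4 and 104.7 and Cy3 intensities of 5441.5, 3691.8, 1755.0 and 2184.9. Its mean ratio was -4.02 with an adjusted p of 0.0810. Dental epithelium markers had 6 of 7 means below 0, with 2 of the 7 called higher in Cy3, against 0.886% of all genes. Among those below 0, Krt5, Krt14 and Epcam lay near it at -0.14, -0.10 and -0.03. The part of dental epithelium in the desmosome values was not tested.

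The 11 genes of promoter choice at the protocadherin clusters, such as Ctcf, which encodes a DNA-binding insulator protein, had a median of -0.19 and 0 calls by limma, with 1 on the Cy5 side and 0 on the Cy3 side at an unadjusted p under 0.05. This 1 was Dnmt3b, a DNA methyltransferase, at a mean of 0.98. At that unadjusted threshold 11.4% of all genes lay on the Cy5 side and 10.1% on the Cy3 side. The WAVE complex and kinases that protocadherins bind had 11 of 12 genes tested, a median of 0.04 and 0 calls by limma. On the Cy5 side 2 had an unadjusted p under 0.05, against 11.4% of all genes. Fyn, a kinase of the Src family, had a mean of 0.63 and was positive on all 4 arrays.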
